A study of Drosophila melanogaster with 4 samples.

Results

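The genes described here encode enzymes of glycolysis and gluconeogenesis in Drosophila melanogaster: the hexokinase genes Hex-A and Hex-C, Pgi, Pfk, Ald1, Gpdh1, Pgk and PyK on the glycolytic side, and fbp and Pepck1 on the gluconeogenic side. They were chosen by name, and every array probe set annotated to exactly 1 of them was used. Of the 10 listed genes, 9 were matched, each by 1 probe set, out of 10844 genes named on the array. PyK, the pyruvate kinase gene, was matched by none and is not analysed here. The 9 are 7 glycolytic and 2 gluconeogenic genes, and all 9 passed the filter on dim probe sets, fbp only through libraries 1 and 2.

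RNA of whole flies was measured on 4 one-colour oligonucleotide arrays, 1 sample per array, and all samples belong to the same baseline group. Per the labels, the animals ate standard food as larvae until early in the third instar, were then moved to the same food without yeast, and were kept on it until 4 days after adult emergence. The baseline flies were killed before any were returned to yeast, so every sample comes from yeast-deprived adults and no fed group or refed time point is analysed here. The samples carry the labelled hours -4, -3, -2 and -1 and are called libraries 1 to 4 in that order. The order served a change-point analysis, per the labels, and all 4 samples were taken just before refeeding, so the hours need not be real times. Strain, sex, flies pooled per sample and culture were not given in the sources used here. The p-values below therefore measure only the spread between these samples, which may be technical.

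Glycolysis splits glucose into pyruvate through a chain of cytosolic enzymes and yields ATP, and in flies it feeds flight muscle together with the glycerol phosphate shuttle. Gluconeogenesis runs the chain backwards and replaces its irreversible steps. Among them, the phosphofructokinase step is replaced by fructose-1,6-bisphosphatase, and the pyruvate kinase step by pyruvate carboxylase and phosphoenolpyruvate carboxykinase. In animals, the enzyme genes of gluconeogenesis are known for their response to feeding and fasting, and in the fly the fat body shares many metabolic tasks with the vertebrate liver.

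Several control measurements set libraries 3 and 4 apart from libraries 1 and 2, and they bear on every comparison below. The 9 hybridisation control probe sets averaged 0.927 times their library 1 brightness in library 2, 1.59 times in library 3 and 1.29 times in library 4. The control probe sets for GAPDH, itself a glycolytic enzyme, showed this within a single transcript. Its 5' probe set had intensities of 438, 411, 333 and 317 in libraries 1 to 4, while its 3' probe set had 1335, 1221, 1242 and 1276. The log2 ratio of 3' to 5' for GAPDH was therefore 1.61, 1.57, 1.90 and 2.01. Male marker genes were brightest in library 3. The 7 markers of the male tract summed to an intensity of 1839 there and to 399 to 451 elsewhere, and the 8 testis markers to 3222 against 1735 to 1779. Among 23 negative control probe sets the highest single intensity was 121, 119, 126 and 133 in libraries 1 to 4, and their median was 46.1 to 48.7. In whole flies, fewer cells of a type and less RNA per cell cannot be told apart.

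Hexokinase phosphorylates glucose at the entry of the pathway, and the genes for its Hex-A and Hex-C forms did not share a pattern. Hex-A had normalized intensities of 526, 507, 606 and 551 in libraries 1 to 4. It was highest in library 3, and libraries 3 and 4 both lay above libraries 1 and 2. Hex-C had 125, 115, 99.5 and 95.6, lower in each library than in the one before. Libraries 3 and 4 both lay below libraries 1 and 2, the opposite order to Hex-A. Hex-C was dim: it lay just above the brightest negative control in library 1 and below it in libraries 2 to 4.

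Pgi, which encodes the isomerase that makes fructose-6-phosphate from glucose-6-phosphate, had 699, 632, 585 and 511 in libraries 1 to 4. Like Hex-C, it was lower at every step of the labelled order. Over all 8379 tested probe sets 7.9% were lower at every step. Pfk, the gene of phosphofructokinase, the committed and most tightly regulated step, had 389, 381, 382 and 352, with a coefficient of variation (CV) of 4.37%. Libraries 1 to 3 were nearly level and library 4 was the lowest.

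Ald1, the gene of the aldolase that cleaves fructose-1,6-bisphosphate and that serves both directions of the pathway, had 4157, 4770, 4424 and 4636. Its libraries 3 and 4 lay between libraries 1 and 2. Pgk, whose product phosphoglycerate kinase makes the first ATP of the payoff phase and also works in both directions, had 768, 840, 750 and 724. Its values in libraries 3 and 4 lay below both others, but library 3 by only a small margin. Gpdh1 encodes the cytosolic glycerol-3-phosphate dehydrogenase, a branch from the pathway to glycerol phosphate, and had 351, 374, 274 and 347. Library 3 was low, and the other 3 libraries were close together.

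The gluconeogenic genes had the widest spread of the 9. The gene fbp, for fructose-1,6-bisphosphatase, had 123, 117, 82.4 and 85.6 in libraries 1 to 4. Libraries 1 and 2 formed a high pair and libraries 3 and 4 a low pair. Like Hex-C, it exceeded the brightest negative control in library 1 alone, though it lay above their median in every library. Pepck1, for the cytosolic phosphoenolpyruvate carboxykinase, had 732, 832, 586 and 542, again with libraries 3 and 4 both below libraries 1 and 2. Pepck1 was well above the negative controls in every library. As means over the 4 libraries, fbp had 102 ± 21.0 and Pepck1 had 673 ± 133 (SD, n = 4), which are CVs of 20.5% and 19.8%, against 4.37% to 13.1% for the glycolytic genes and a median of 5.24% over all tested probe sets.

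Across the 9 genes, the lowest value lay in library 4 for 5, against 32.8% of tested probe sets, in library 3 for 2 (28.6%), and in library 2 (20.5%) and library 1 (18.1%) for 1 each. The highest lay in library 1 for 4 (25.4%), in library 2 for 4 (26.8%), in library 3 for 1 (23%) and in library 4 for 0 (24.8%).

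**Figure D1:**
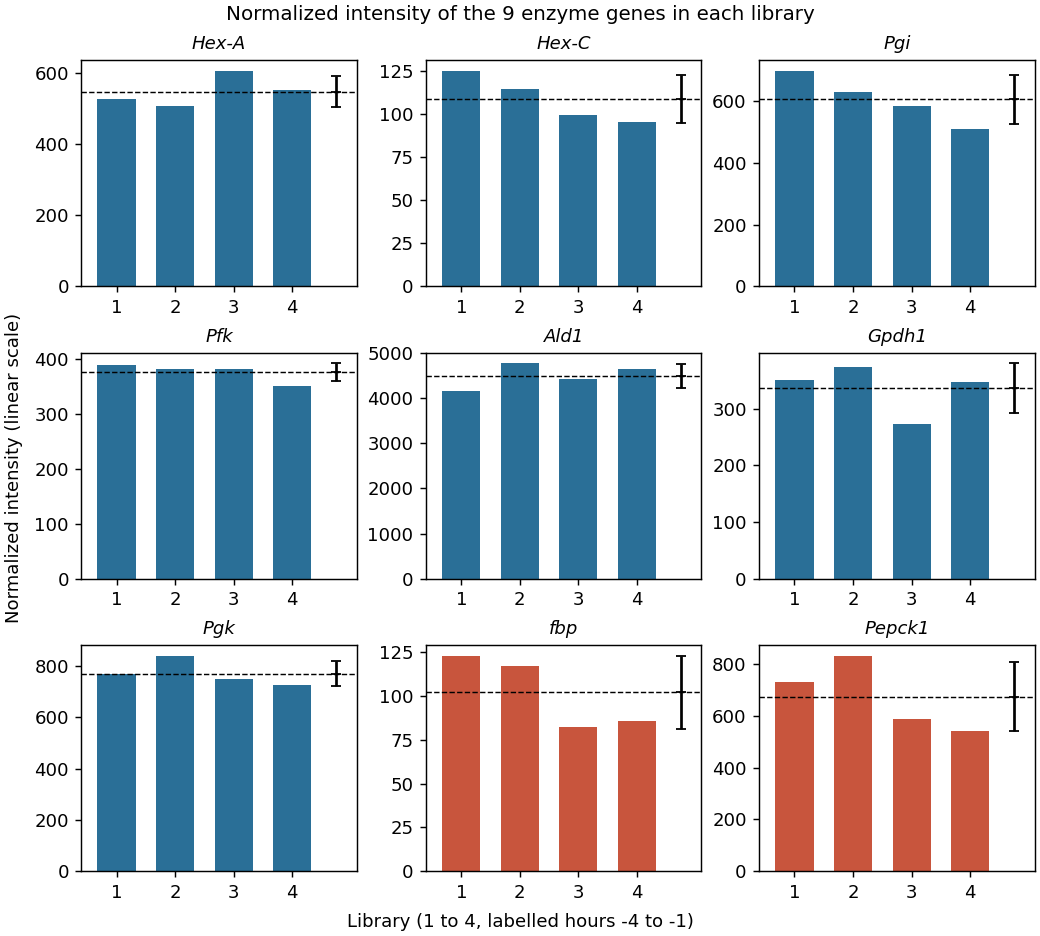
Normalized intensity on a linear axis from 0 (y) in libraries 1 to 4 (x) for each of the 9 genes, glycolytic in blue and gluconeogenic in red. The dashed line is the mean, and the bar at the right is the mean ± SD (n = 4). In fbp and Pepck1 libraries 3 and 4 sit below libraries 1 and 2, while Hex-A shows the opposite order and in Ald1 and Pfk the library pairs overlap.

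Set against the SD that probe sets of like intensity showed, the spread was 3.67 times as large for fbp and 2.84 times for Pepck1. The ratio was 2.28 for Gpdh1, 2.22 for Hex-C and 1.92 for Pgi, and 0.719 to 1.34 for Pfk, Pgk, Hex-A and Ald1. None of the 9 passed the test for excess variance (limma-based F test, Benjamini-Hochberg adjusted over all tested probe sets), which 0.274% of tested probe sets passed. The smallest adjusted p was 0.264 for fbp, followed by 0.549 for Pepck1. At an unadjusted p under 0.05, 4 of the 9 members passed: fbp, Pepck1, Gpdh1 and Hex-C, against 5.53% of tested probe sets.

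**Figure D2:**
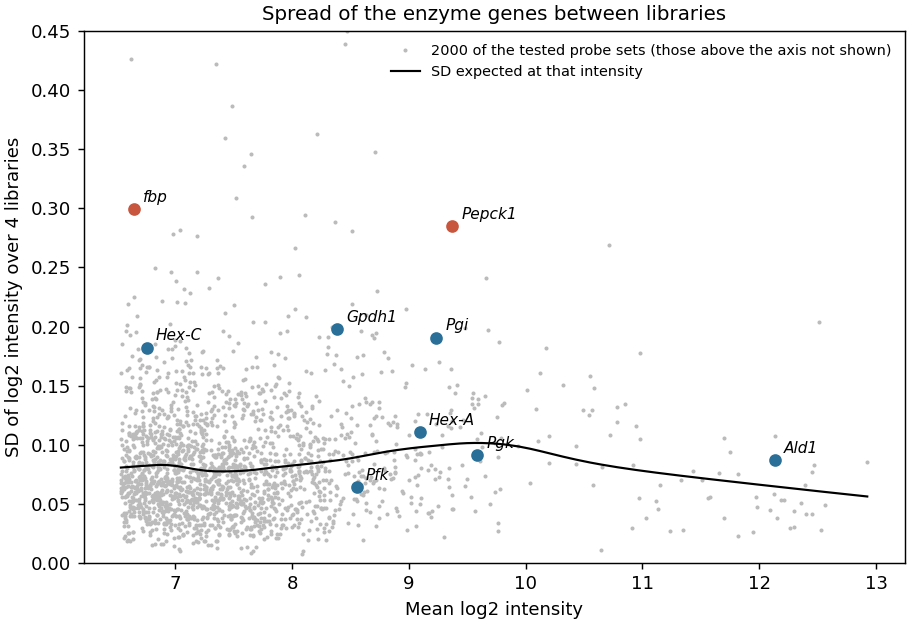
SD of log2 intensity over the 4 libraries (y) against mean log2 intensity (x), for the 9 genes and for 2000 of the 8379 tested probe sets (grey), with the SD expected at each intensity as a line. The genes fbp and Pepck1 sit highest above the line, at 3.67 and 2.84 times the expected SD, and Pfk and Pgk lie below it.

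Along the labelled hour, the members with the steepest fitted slopes were lower in later libraries. The slope of log2 intensity per labelled hour was -0.21 ± 0.05 for fbp, -0.18 ± 0.06 for Pepck1, -0.15 ± 0.03 for Pgi and -0.14 ± 0.03 for Hex-C (SE, 4 libraries). The other 5 genes had slopes from -0.05 for Gpdh1 to 0.05 for Hex-A. No member passed in limma, and neither did any other probe set (0%). The adjusted p was 0.298 for fbp, Pgi and Hex-C and 0.365 for Pepck1. At an unadjusted p under 0.05 these 4 members passed, against 11.6% of tested probe sets.

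The labelled hours -2 and -1 were also set against -4 and -3, that is, libraries 3 and 4 against libraries 1 and 2. This coding was an alternative to the straight line, listed with earlier results of these data known. In it fbp was lower in the later pair, at 0.700 times the earlier level, a log2 difference of -0.51 (95% interval -0.67 to -0.36, limma adjusted p = 0.0396), with both later libraries below both earlier ones. Its later mean of 84.0 lies below the filter of 92.5 and below the brightest negative controls, though above their median. The fold is therefore taken against values within the range of the negative controls, and fbp entered the test through its earlier libraries. With no filter its limma adjusted p was 0.887. No other member passed, and 0.131% of tested probe sets did. Pepck1 stood at 0.722 times, a log2 difference of -0.47 (-0.67 to -0.27), with a limma adjusted p of 0.102, and did not pass. Over the other settings tried for this comparison, the adjusted p of fbp ran from 5.72e-06 to 0.887 and passed in 6 of 11, and that of Pepck1 ran from 0.000871 to 0.904 and passed in 2 of 12. Without library 1 or without library 2, fbp had adjusted p of 0.260 and 0.306 in limma. Without library 3 or without library 4, fbp, Pepck1 and Hex-C all passed, joined by Pgi without library 3 and by Gpdh1 without library 4. In those settings 503 and 504 of all probe sets passed.

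The glycolytic genes spread from lower to higher in the same comparison. Hex-C stood at 0.812 times (95% interval 0.724 to 0.911) and Pgi at 0.822 times (0.713 to 0.949), with limma adjusted p of 0.171 and 0.272. Gpdh1 stood at 0.851 times (0.713 to 1.02), and its interval holds no change. This value rested on library 3: the log2 difference was -0.23 with all libraries, -0.06 without library 3 and -0.40 without library 4. Pgk at 0.918 (0.810 to 1.04), Pfk at 0.952 (0.850 to 1.07) and Ald1 at 1.02 (0.909 to 1.14) had intervals that hold no change and reach no lower than 0.810. Hex-A stood at 1.12 times (0.989 to 1.26), the only member with both later libraries above both earlier ones. In all, 6 of the 9 members had both later libraries below both earlier ones, against 28.3% of tested probe sets, and 1 had the opposite order, against 17.2%. After quantile normalization the first count was 4 of 9, against 21.9%.

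**Figure D3:**
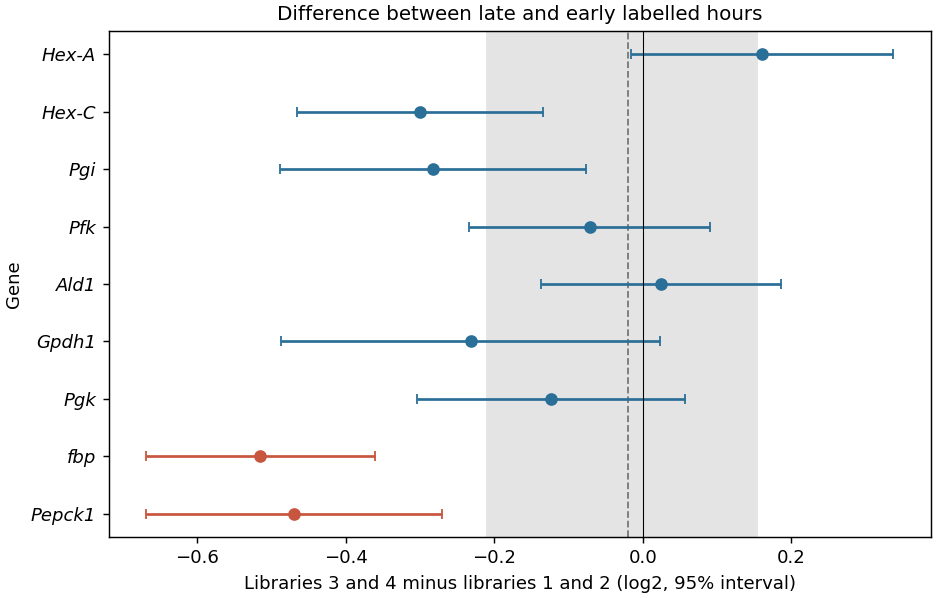
Difference in log2 intensity between libraries 3 and 4 and libraries 1 and 2 (x) for each of the 9 genes (y), with 95% intervals from limma. The grey band spans the middle 90% of tested probe sets and the dashed line is their median of -0.02. The genes fbp and Pepck1 lie at -0.51 and -0.47, with intervals wholly to the left of the band, and Hex-A lies at 0.16.

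Glycolytic and gluconeogenic genes were compared by their deviations from each gene's own mean, since intensities of different probe sets cannot be set against each other. The median deviation of the 7 glycolytic genes was 0.05, 0.09, -0.04 and -0.09 on the log2 scale in libraries 1 to 4. For fbp and Pepck1 it was 0.22, 0.28, -0.23 and -0.26, and over all tested probe sets 0.01, 0.01, -0.01 and -0.01. The gluconeogenic median rests on only 2 genes. Of these, fbp passed the filter only through libraries 1 and 2 and lay below the brightest negative control in libraries 2 to 4. Pepck1 by itself deviated by 0.14, 0.33, -0.18 and -0.29. Leaving out 1 library moved the glycolytic median from -0.0045 (without library 3) to 0.057 in library 1, from 0.028 (without library 4) to 0.126 in library 2 and from -0.066 to 0.0055 (without library 2) in library 3, so its sign in libraries 1 and 3 is not settled. With all libraries, the glycolytic median lay below the gluconeogenic one by -0.17 and -0.19 in libraries 1 and 2 and above it by 0.20 and 0.17 in libraries 3 and 4. Both medians were lower in libraries 3 and 4, that of fbp and Pepck1 by more. This difference was not tested: with 2 libraries against 2, an exact permutation test cannot give a p below 0.333.

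Relative to the glycolytic genes one by one, fbp was lower in both later libraries than in both earlier ones against all 7. The same held for fbp against 99.1% of all other tested probe sets, so this order is mostly that of fbp itself. The gene passed the filter only through libraries 1 and 2. Both fbp and Hex-C lay below the brightest negative control in libraries 2 to 4, which limits their ratios. Pepck1 showed this order against 4 of the 7, Hex-A, Pfk, Ald1 and Pgk, and against 97.6% of other tested probe sets. Against Hex-C, Pgi and Gpdh1 its ratio overlapped between the library pairs.

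**Figure D4:**
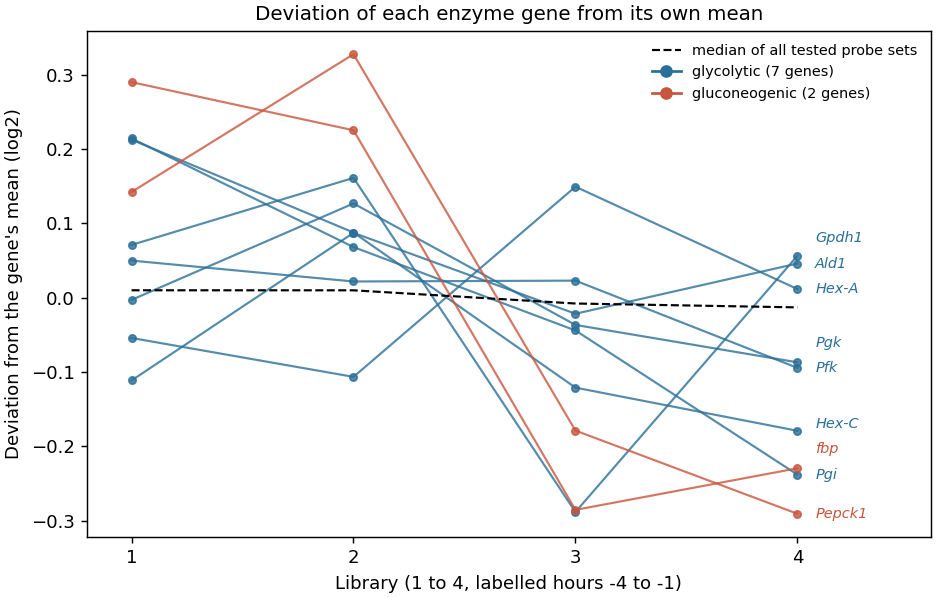
Deviation of log2 intensity from the gene's own mean (y) in libraries 1 to 4 (x) for the 7 glycolytic genes (blue) and fbp and Pepck1 (red), with the median of all tested probe sets dashed. The red lines lie at 0.14 or above in libraries 1 and 2 and at -0.18 or below in libraries 3 and 4, while Hex-A peaks in library 3 and Gpdh1 is lowest there. Both fbp and Hex-C were dim, below the brightest negative control in libraries 2 to 4.

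Each library was set against the mean of the other 3 to see whether 1 sample stood apart at these genes. No member passed for any library in limma, against 0%, 0.107%, 0.704% and 0.0119% of tested probe sets for libraries 1 to 4. The nearest was Gpdh1 in library 3, with a log2 difference of -0.38 ± 0.09 to the other 3 (SE; limma adjusted p = 0.205, unadjusted p = 0.00218). Library 3 is also where the male markers were brightest, and their part in the Gpdh1 value was not tested. Without library 4, this test of library 3 is the same comparison as early against late hours, with a spread from libraries 1 and 2 alone. The lowest log2 differences were then -0.54 for fbp, -0.41 for Pepck1, -0.40 for Gpdh1 and -0.27 for Hex-C, while Hex-A was higher (0.23). Without library 3, the same holds for library 4. The lowest there were -0.53 for Pepck1, -0.49 for fbp, -0.38 for Pgi and -0.33 for Hex-C, while Hex-A (0.09) and Ald1 (0.06) were higher.

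The rest of the pathway was covered by lists of related enzymes, written with earlier results of these data known. No gene of these lists passed the tests for variance, single libraries, the labelled hour or early against late hours in limma. Of 5 other glycolytic enzyme genes, 3 were measured. Gapdh1, for the enzyme that oxidises glyceraldehyde-3-phosphate and named here after its values were seen, had 2825, 2820, 2887 and 2903. Eno, the enolase gene, had 1228, 1212, 1164 and 1091, and Pglym78, for phosphoglycerate mutase, had 791, 825, 732 and 733. Eno and Pglym78 had both later libraries below both earlier ones, at 0.924 and 0.906 times.

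Of 3 other gluconeogenic enzyme genes, 2 were bright enough to test, and they went opposite ways. PCB, for the pyruvate carboxylase that works just before Pepck1 in the route, had 576, 599, 466 and 480. Libraries 3 and 4 were its low pair, as for Pepck1, at 0.806 times the earlier level (limma adjusted p = 0.156). G6P, for glucose-6-phosphatase, had 102, 96.6, 107 and 110, slightly higher in the later libraries and within the range of negative controls.

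Storage carbohydrate genes mostly had the same order of libraries as fbp and Pepck1. Of 9 tested glycogen and trehalose genes, 7 had both later libraries below both earlier ones, against 28.3% of all tested probe sets, and none the opposite, with a median difference of -0.21 on the log2 scale against -0.02 over all tested probe sets. UGP, whose product makes the UDP-glucose used for glycogen and trehalose, had 660, 714, 514 and 512, which is 0.747 times in the later libraries (limma adjusted p = 0.0921). Pgm1, for the phosphoglucomutase that links glucose-6-phosphate to glycogen, had 305, 296, 264 and 254. Glyp, the glycogen phosphorylase gene, had 804, 815, 703 and 679, and Glys, the glycogen synthase gene, had 193, 200, 191 and 176, both named after their values were seen. Their enzymes break down and build glycogen, and both had their libraries in the same order.

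Of 5 tested pentose phosphate genes, 2 had both later libraries below both earlier ones, close to the 28.3% of all tested probe sets, and the list's median difference was -0.08 on the log2 scale. CG8036, a transketolase gene, had 1491, 1548, 1196 and 1336. Taldo, the transaldolase gene, named after its values were seen, had 348, 350, 276 and 291. These enzymes of the non-oxidative branch exchange sugars with glycolysis. Pgls, for the lactonase of the oxidative branch, had 189, 182, 197 and 169, with the library pairs overlapping.

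Around the lower end of the pathway, of 9 tested genes of pyruvate, malate and aspartate metabolism, 6 had both later libraries below both earlier ones, against 28.3% of all tested probe sets. Mdh1, the cytosolic malate dehydrogenase gene, had 1297, 1131, 1043 and 1064, and Got2, a glutamate oxaloacetate transaminase gene, had 529, 562, 484 and 481. Men and Men-b, malic enzyme genes named after their values were seen, each had 2 probe sets that disagreed. Those of Men had 102, 111, 107 and 125 and 99.2, 114, 86.7 and 85.3. Those of Men-b had 422, 451, 404 and 376, with both later libraries lower, and 236, 230, 239 and 244, with both higher. The brighter of each gene was the one counted, so Men-b is among the 6. Of 10 tested TCA cycle genes, 5 had that order, against the same 28.3%, with a median difference of -0.08 on the log2 scale. Idh3b, a subunit gene of isocitrate dehydrogenase, had 545, 574, 492 and 467, and ScsbetaA, of succinyl-CoA synthetase, had 792, 777, 752 and 705.

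**Figure D5:**
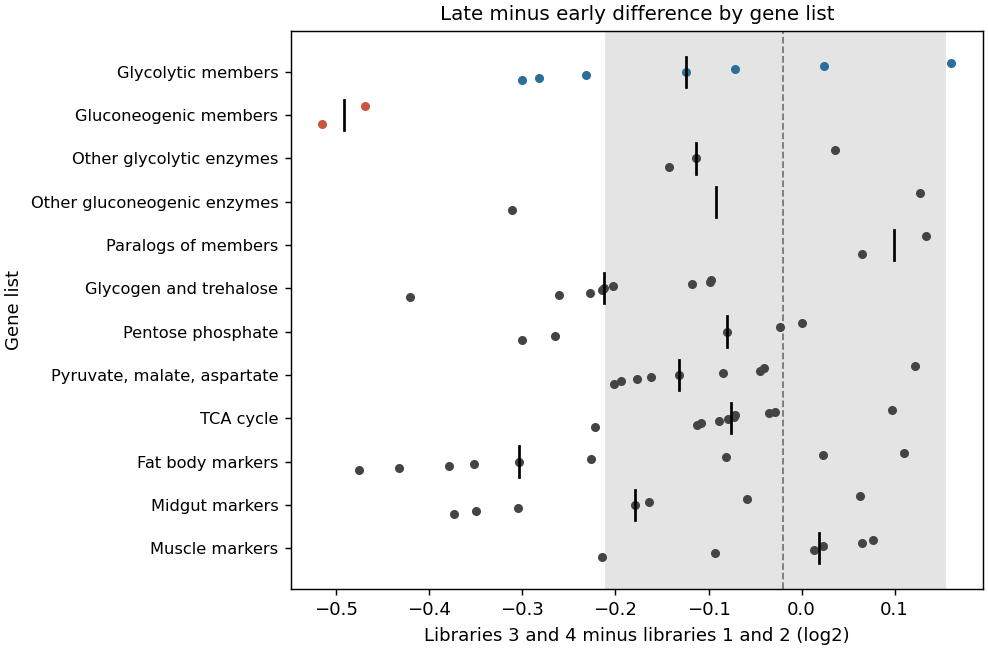
Difference in log2 intensity between libraries 3 and 4 and libraries 1 and 2 (x) for each tested gene (points) of each list (y), with the list's median as a bar. The grey band spans the middle 90% of all tested probe sets, and the dashed line is their median. The gluconeogenic members, the glycogen and trehalose genes and the fat body markers have the lowest medians, and the muscle markers have a median of 0.02.

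Summed markers of fat body, midgut, ovary and neurons were lower in libraries 3 and 4 than in libraries 1 and 2, and those of muscle overlapped. Taken gene by gene, most fat body and midgut markers had this order, but most ovary and neuron markers did not. The 9 measured fat body markers summed to intensities of 3291, 3318, 2634 and 2898 in libraries 1 to 4. Of them, 6 had both later libraries below both earlier ones, with a median log2 difference of -0.30. The apolipophorin gene apolpp passed on the dimmer of its probe sets, with 454, 447, 263 and 285 (log2 difference -0.72, limma adjusted p = 0.0116). Its brighter probe set, the one in the sum, had 936, 820, 616 and 684 and did not pass (-0.43, limma adjusted p = 0.140). FASN1, a fatty acid synthase gene, passed as lower in library 3 (limma adjusted p = 0.0227). The 7 midgut markers summed to 13513, 13663, 10583 and 11754, and 4 had that order. Of the 7, Mal-A1, a maltase gene, passed as lower in library 3 (limma adjusted p = 0.0218). The 7 ovary markers summed to 1791, 1951, 1778 and 1771, with 1 of 6 tested in that order and a median log2 difference of -0.02. The 4 neuron markers summed to 880, 813, 803 and 739, with 1 of 3 tested in that order and a median of -0.04. Over all tested probe sets 28.3% had that order, and the median was -0.02. The 7 muscle markers summed to 10201, 9671, 10326 and 9708, with 1 of 6 tested in that order. These 3 passing marker genes are named after their values were seen. Of the male markers, all 3 tested of the male tract and 6 of 8 of the testis also passed for variance or a single library. The part of these tissues, of the 3' to 5' difference or of the male markers in the values of fbp and Pepck1 was not tested.

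Paralogs of the members were mostly dim. Of 10 measured paralogs, 8 lay below the filter and 5 of these below the floor of 57.1 in every library. Of the 8, 7 had their highest value in library 3, where 30.5% of all probe sets below the filter had theirs. Picked after their values were seen, Pglym87, a phosphoglycerate mutase paralog, had 69.3 in library 3 against 32.5 to 38.1, and Hex-t2, a testis hexokinase gene, had 98.7 against 78.7 to 86.4. The paralogs that were tested, CG9961 (150, 147, 156 and 169) and CG2964 (108, 109, 109 and 119), were highest in library 4.

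Pepck1 had the largest range of the members, 0.62 on the log2 scale. The 3 named genes outside the lists with the most similar deviations over the 4 libraries were salt, CG6295 and CG42369, at root mean square differences of 0.04, 0.06 and 0.06 on the log2 scale. The gene salt had 448, 505, 382 and 329 in libraries 1 to 4, CG6295 had 481, 544, 352 and 330, and CG42369 had 181, 202, 137 and 143. Like Pepck1, all 3 were highest in library 2 and had libraries 3 and 4 below libraries 1 and 2. Likeness over 4 libraries is a description only.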

How the data were processed

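Whole-fly RNA of 4 baseline samples was hybridised to Affymetrix fly arrays with 1 colour. Deposited values are linear intensities that the authors normalized between arrays with dChip through invariant probes, per the labels. Version, background model and detection calls of dChip were not given in the sources used here. Depth has no direct measure on arrays, and their number, 4, limits the precision.

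Of 14010 probe sets, 44 controls were set aside. Values below the 20th percentile (57.1) were raised to it and log2 was taken. The 8379 probe sets whose mean exceeded the 40th percentile (92.5) were tested with limma 3.58.1 (R 4.3.3), using a robust, trended prior. P-values were Benjamini-Hochberg adjusted over all of them at a threshold of 0.05, two-sided except for the upper-tail variance test. Where 1 library was set against 3, its variance was taken to equal theirs. The tests for variance, single libraries and the straight line over the labelled hour were tried on simulated data. The early against late coding was not.

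Genes were named from probe sets with 1 gene in the platform annotation, with symbols updated through RefSeq's Release 6 plus ISO1 MT table, whose coordinates were not used. Of the lists' genes, 4 were matched by their current symbols (Glyp, Glys, Pgls and nanos) after list values had been seen. Lists used the brightest probe set per gene. Named genes are all members, the largest and median range in each list, and the 3 profiles nearest to the member with the largest range. Members and lists were chosen with earlier results of these data known. Alternatives changed the floor, filter, normalization, prior, coding of the hour and the replicates used.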

Additional observations from a re-analysis of the deposited data

Results flagged for a closer look

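Of 23 intensity profiles examined among members and named related genes, 1 held a library far from the others. CG2964, a pyruvate kinase paralog, had 118.6 in library 4 against 108 to 109 in the other 3, a gap of 0.879 of its range, above Dixon's 95% critical value for 4 samples. Chance flags about 1 in 20 groups. All 4 values lie below the brightest negative control of their library.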

How the results depend on the processing

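No member passed the variance test, or the tests of library 1 and library 2, in any setting tried. The count of members passing was 0 to 4 for library 3 and 0 to 4 for library 4 as replicates were left out, and 0 to 3 for the labelled hour. Where it was 4, 4 and 3, 504, 503 and 321 of 8379 probe sets passed, against 59, 1 and 0 with every library. It was 1 for the labelled hour when early and late hours were compared instead of a line. That early and late comparison, run under the other settings after seeing the data, gave 1 member (fbp) and was 0 without a filter, with the filter at the 60th percentile (where fbp and Hex-C are too dim to be tested), with quantile normalization and with a prior that is not robust. Its range over replicates left out was 0 to 4. Settings without library 3 or 4 have a residual spread from libraries 1 and 2 alone in this comparison. With 1 of these left out, setting the other against the rest is this same comparison, and its count is not a separate result. As replicates were left out, some small log2 differences changed sign, none past the threshold: for library 3 against the others, Pgi ran from -0.185 to 0.041, Pfk from -0.013 to 0.059, Ald1 from -0.088 to 0.011 and Pgk from -0.098 to 0.0083. Ald1 ran from -0.021 to 0.051 per labelled hour and from -0.075 to 0.123 between early and late hours, where it was -0.0095 without replicate 4. The glycolytic minus gluconeogenic deviation kept its sign in each library under every setting tried for it, but median centring and the lower floor cannot change it. Its size in library 3 ran from 0.122 to 0.253 as replicates were left out. No paired analysis was possible because there is a single group. The dim signal of fbp and Hex-C, near the brightest negative controls, limits what their folds say.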
